A study of Homo sapiens with 4 samples.

Results

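The interferon-stimulated genes are the genes that cells switch on when an interferon binds its receptor. A list of 37 such genes was followed in HCE cells, a human corneal epithelial line that the labels call undifferentiated, after knockdown of the zinc finger transcription factor KLF7. Members were found by their single gene symbol in the platform annotation. Of the 37, 36 were measured among 18417 genes in all, and STAT2 was not analysed here. The 4 whole-transcript arrays held total RNA of 2 samples given a pool of siRNAs that target KLF7 (siKLF7) and of 2 samples given a scramble control pool. Both groups were HCE cells plated at 100000 per well, given siRNA at 20 nM and collected after 48 hours, so both carried transfected siRNA and neither was left untransfected. Nothing in the labels tells if samples within a group were separate cultures, so p-values reflect only how far these samples differ, perhaps for technical reasons.

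Type I interferons signal through IFNAR1 and IFNAR2, and type III interferons, which act mainly on epithelia, through IFNLR1 and IL10RB. The kinases JAK1 and TYK2 then phosphorylate STAT2, which acts with IRF9 in ISGF3, a complex that binds the interferon-stimulated response element (ISRE) in promoters. The products degrade viral RNA, block translation, trap virions or tune the signal, and cells can also start the response themselves when a sensor such as IFIH1 meets double-stranded RNA.

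Most promoters of the list that could be read held this element. RefSeq promoter windows (GRCh38.p14, 250 bases before the start of a gene to 50 after it) were matched by symbol for 30 of the 36 genes, and IFIT2, MX2, OAS2, OASL, IRF7 and USP18 had none here. The ISRE core was searched as GAAA, any 2 bases and GAAA again, or TTTC, any 2 bases and TTTC on the other strand. It was present in 21 of the 30 windows (70%), against 433 of the 14239 windows of all measured genes (3.04%), and 14 of the 21 held more than 1 match. The gamma-activated site bound by STAT dimers, TTCNNNGAA, which reads the same on both strands, was present in 9 of 30 windows (30%) against 7.07% of the windows of all measured genes. In 4 windows (BST2, EPSTI1, IFI27 and IFITM1) a gamma-activated site shared bases with an ISRE core. A CACCC-type motif of the KLF and SP families, CCNCNCCC or GGGNGNGG on the other strand, was present in 10 of 30 windows (33.3%) and in 67.7% of the windows of all measured genes. These matches are descriptions of letters and do not show binding.

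The windows of 4 members are shown because these genes stood at opposite ends of the data: IFI44L and IFIT3 differed most between the controls, IFITM3 was one of few members below both controls, and ISG20 hardly differed between any arrays. Capitals mark matches to the ISRE core on either strand.
IFI44L (chr1:78620198-78620497, + strand): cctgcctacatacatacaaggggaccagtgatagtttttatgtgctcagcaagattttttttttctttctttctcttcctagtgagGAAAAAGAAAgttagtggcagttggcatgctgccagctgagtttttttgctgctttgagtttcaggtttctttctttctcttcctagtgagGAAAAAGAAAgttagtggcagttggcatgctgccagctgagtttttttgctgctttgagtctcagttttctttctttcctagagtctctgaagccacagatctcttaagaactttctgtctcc
IFIT3 (chr10:89327747-89328046, + strand): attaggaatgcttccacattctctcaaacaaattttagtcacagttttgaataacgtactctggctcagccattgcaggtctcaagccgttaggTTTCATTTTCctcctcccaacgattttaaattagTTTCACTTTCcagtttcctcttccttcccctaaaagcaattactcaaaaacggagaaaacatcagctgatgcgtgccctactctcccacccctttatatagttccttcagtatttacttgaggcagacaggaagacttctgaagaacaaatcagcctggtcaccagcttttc
IFITM3 (chr11:320811-321110, - strand): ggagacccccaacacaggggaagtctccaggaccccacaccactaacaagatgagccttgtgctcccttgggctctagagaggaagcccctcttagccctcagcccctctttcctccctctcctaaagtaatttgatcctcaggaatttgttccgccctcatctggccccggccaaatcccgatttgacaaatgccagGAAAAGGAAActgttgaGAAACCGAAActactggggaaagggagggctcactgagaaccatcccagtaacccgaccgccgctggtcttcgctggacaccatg
ISG20 (chr15:88638766-88639065, + strand): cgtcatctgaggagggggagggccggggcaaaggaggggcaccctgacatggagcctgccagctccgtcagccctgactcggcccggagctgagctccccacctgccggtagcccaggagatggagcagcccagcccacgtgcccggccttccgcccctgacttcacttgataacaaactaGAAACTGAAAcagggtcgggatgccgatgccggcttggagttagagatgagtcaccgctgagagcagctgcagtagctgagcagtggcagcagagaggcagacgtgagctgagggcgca
All 4 windows hold the core, so its presence did not separate these 4 genes. Over the 21 members with the core, the controls differed by a median of 0.79 and the siKLF7 arrays by 0.33 (log2, replicate 1 minus replicate 2). Over the 9 members without it, these medians were 0.83 and 0.38.

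All levels below are log2(signal + 16), where the signal is the deposited array intensity and 16 is a pseudocount that damps differences of dim probe sets. A level is given for comparison of the same gene between arrays, not between genes. Across all genes scramble control replicate 1 stood apart from the other 3 arrays, with correlations of 0.934 to 0.938, against 0.990 to 0.994 among the others. The epithelial genes KRT5 (13.53 to 13.73), KRT14 (13.04 to 13.68), CDH1 (11.63 to 11.95) and PAX6 (10.37 to 11.37) were bright in all 4 arrays. The corneal keratins KRT12 and KRT3 stood at 6.39 and 4.0 in scramble control replicate 1, against 10.51 to 11.62 in the other 3. Each siKLF7 array was therefore set against each control separately, and each fit was run on all 4 arrays and again on 3, leaving out that control. Whether this array holds the same cells in the same state as the others was not tested, which bears on every 4-array difference and every value set against it.

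The knockdown was checked first. KLF7 stood at 10.56 and 10.15 in the siKLF7 arrays, against 12.19 and 11.52 in the scramble control arrays. The groups did not overlap, and KLF7 was lower in siKLF7 by 1.496 on the log2 scale (SE 0.28) with limma's adjusted p = 0.639 over 4 arrays. Over 3 arrays KLF7 fell by 1.16 (SE 0.13, limma adjusted p = 1.2e-09). The two-sided p from an exact permutation of the 4 arrays was 0.333, which no split of 2 against 2 can go below.

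Interferon-stimulated genes differed between arrays in a shared order that did not separate siKLF7 from control. For 22 of 36 genes the order from high to low was scramble control replicate 1, siKLF7 replicate 1, scramble control replicate 2 and siKLF7 replicate 2, an order found in 5.46% of all genes. Scramble control replicate 1 was the highest array for 32 of 36 genes (38.3% of all genes) and siKLF7 replicate 2 the lowest for 27 of 36 (24.9% of all genes). The summed signal of the 36 genes was 29919 and 22765 in the siKLF7 arrays, against 50629 and 26289 in the scramble control arrays. The same sum over all 18417 genes differed little, at 11639020 and 11306988 in the siKLF7 arrays against 11476101 and 11438153 in the scramble control arrays. In bulk RNA, fewer cells that express a gene and less of its RNA per cell cannot be told apart.

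**Figure D1:**
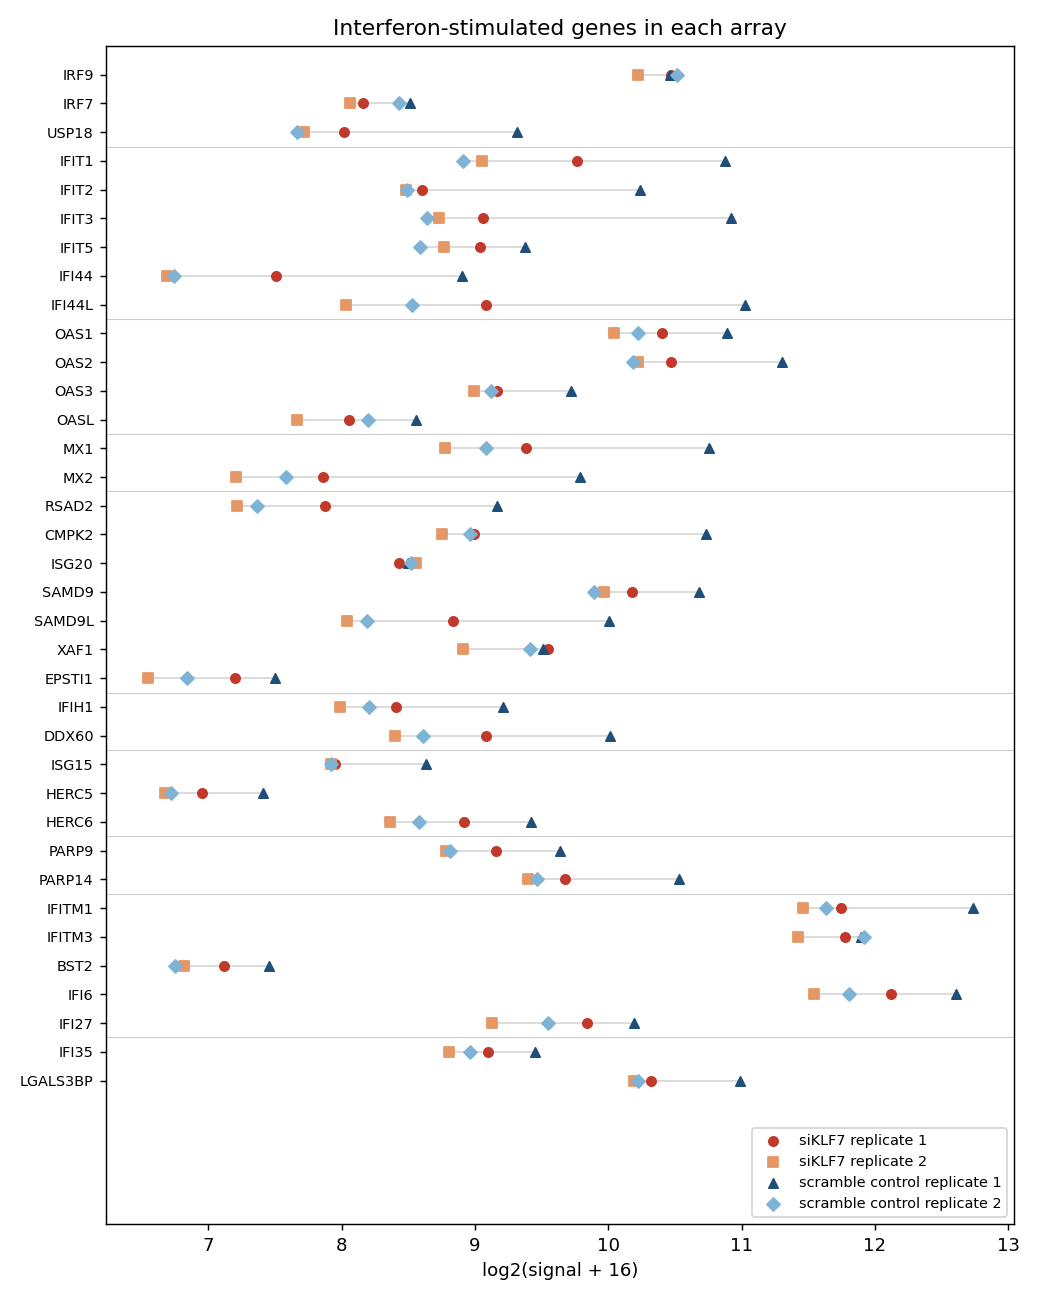
Level of each of the 36 measured interferon-stimulated genes in each of the 4 arrays, as log2(signal + 16) on the horizontal axis, with genes grouped by role between the grey lines. Scramble control replicate 1 (dark triangles) lies furthest right for 32 genes and siKLF7 replicate 2 (squares) furthest left for 27.

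The direction of a siKLF7 effect depended on which control was used. Against scramble control replicate 1 the 36 genes had a median difference of -0.61 in the first siKLF7 array and -1.06 in the second, with 34 genes (55.6% of all genes) and 35 genes (57.5%) lower. Of these, 18 (replicate 1) and 32 (replicate 2) were at least 1.5-fold lower, against 6.67% and 7.20% of all genes. Against scramble control replicate 2 the median was 0.28 for siKLF7 replicate 1, with 31 genes higher (46.0% of all genes), and -0.16 for siKLF7 replicate 2, with 27 genes lower (61.0% of all genes). Past 1.5-fold, 3 genes were higher in siKLF7 replicate 1 (0.988% of all genes) and 0 were lower in siKLF7 replicate 2 (0.896% of all genes). The medians over all genes for these 4 pairs of arrays lay between -0.06 and -0.02. Relative to scramble control replicate 2, 23 of 36 genes were higher in siKLF7 replicate 1 and lower in siKLF7 replicate 2, a split seen in 16.4% of all genes. Another 8 were higher in both siKLF7 arrays, 4 were lower in both and ISG20 was lower in replicate 1 and higher in replicate 2.

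Replicates of the same group also differed. The genes stood a median of 0.34 higher in siKLF7 replicate 1 than in siKLF7 replicate 2, with 35 of 36 higher (56.3% of all genes) and 11 at least 1.5-fold higher (0.559% of all genes, or 103 genes). They stood a median of 0.81 higher in scramble control replicate 1 than in replicate 2, with 33 of 36 higher (49.2% of all genes). In that pair 29 were at least 1.5-fold higher (6.40% of all genes) and 16 at least 2-fold higher (2.34%). Over all genes the medians of these within-group differences were 0.03 and -0.01. Across the 36 genes the 2 within-group differences, which share no array, correlated at Pearson's r = 0.53 and Spearman's rho = 0.42, against r = -0.04 across all genes. These are descriptions across genes measured on the same 4 arrays, and genes are not independent replicates.

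**Figure D2:**
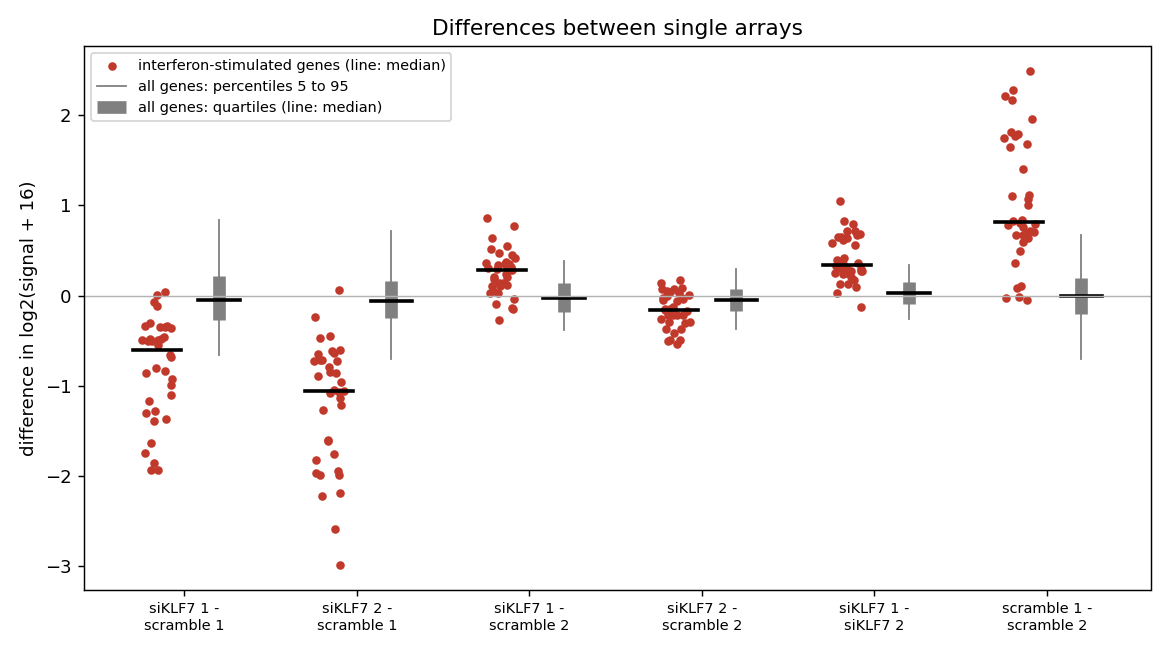
Difference in log2(signal + 16) between single arrays for the 36 interferon-stimulated genes (points, with a line at the median) beside all 18417 genes (thick bar for the quartiles, thin line for percentiles). The medians of the 36 genes are -0.61 and -1.06 against scramble control replicate 1, 0.28 and -0.16 against scramble control replicate 2, 0.34 between the siKLF7 arrays and 0.81 between the controls.

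**Figure D3:**
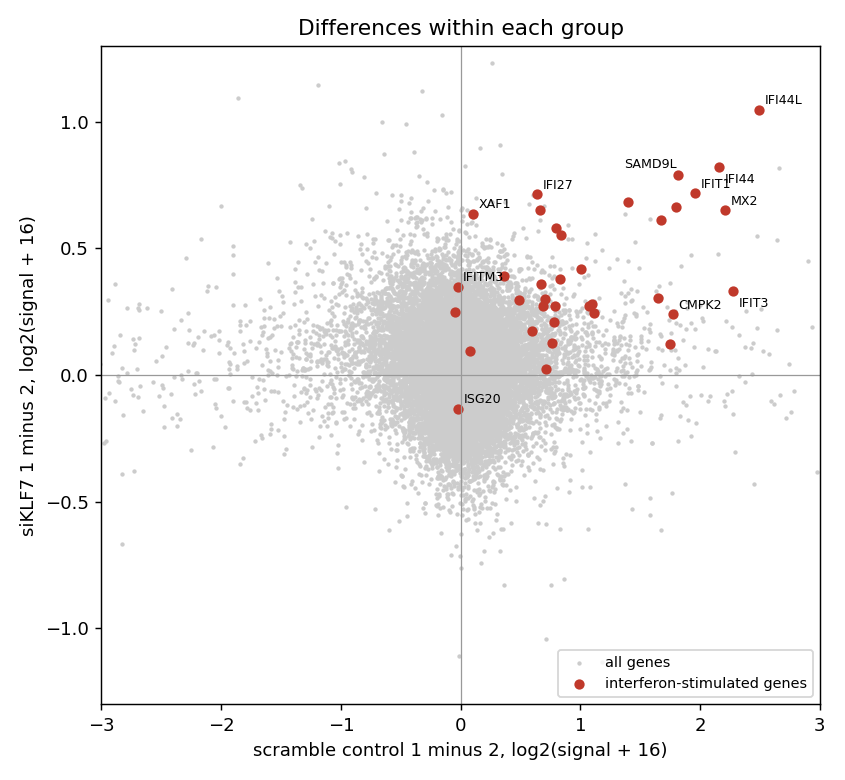
Difference between the siKLF7 arrays (vertical) against the difference between the scramble control arrays (horizontal), both replicate 1 minus replicate 2 in log2(signal + 16), for all genes (grey) and interferon-stimulated genes (red). Of the 36 genes 35 lie above the horizontal line and 33 right of the vertical line; 159 of all genes fall outside the axes.

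With values as deposited, no member passed the test of siKLF7 against control over 4 arrays or without scramble control replicate 1. With 4 arrays, limma called 0 of 36 members and 0 of 18417 genes (0.00%) at an adjusted p under 0.05. At an unadjusted p under 0.05 it gave 1 member (IRF7, lower), against 350 genes higher and 719 lower over the whole table. All 36 fitted differences were below 0, from -1.22 to -0.02 with a median of -0.38, against a median of -0.05 over all genes, of which 58.2% were below 0. With 3 arrays, limma called 0 of 36 members and 290 of 18417 genes (1.57%), 163 higher (0.885%) and 127 lower (0.690%). The fitted difference was above 0 for 23 of the 36 members in this fit, against 42.2% of all genes. The median over the members was then 0.03, within a range of -0.34 to 0.50, against -0.04 over all genes. Without scramble control replicate 2 instead, 32 members were called, all lower (13.4% of all genes were called lower), and IRF7, IRF9, ISG20 and XAF1 were not. Both siKLF7 arrays lay below both controls for 3 members (28.9% of all genes) and above both for 0 (16.3% of all genes), so 33 overlapped, while 45.2% of all genes had groups that did not overlap.

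**Figure D4:**
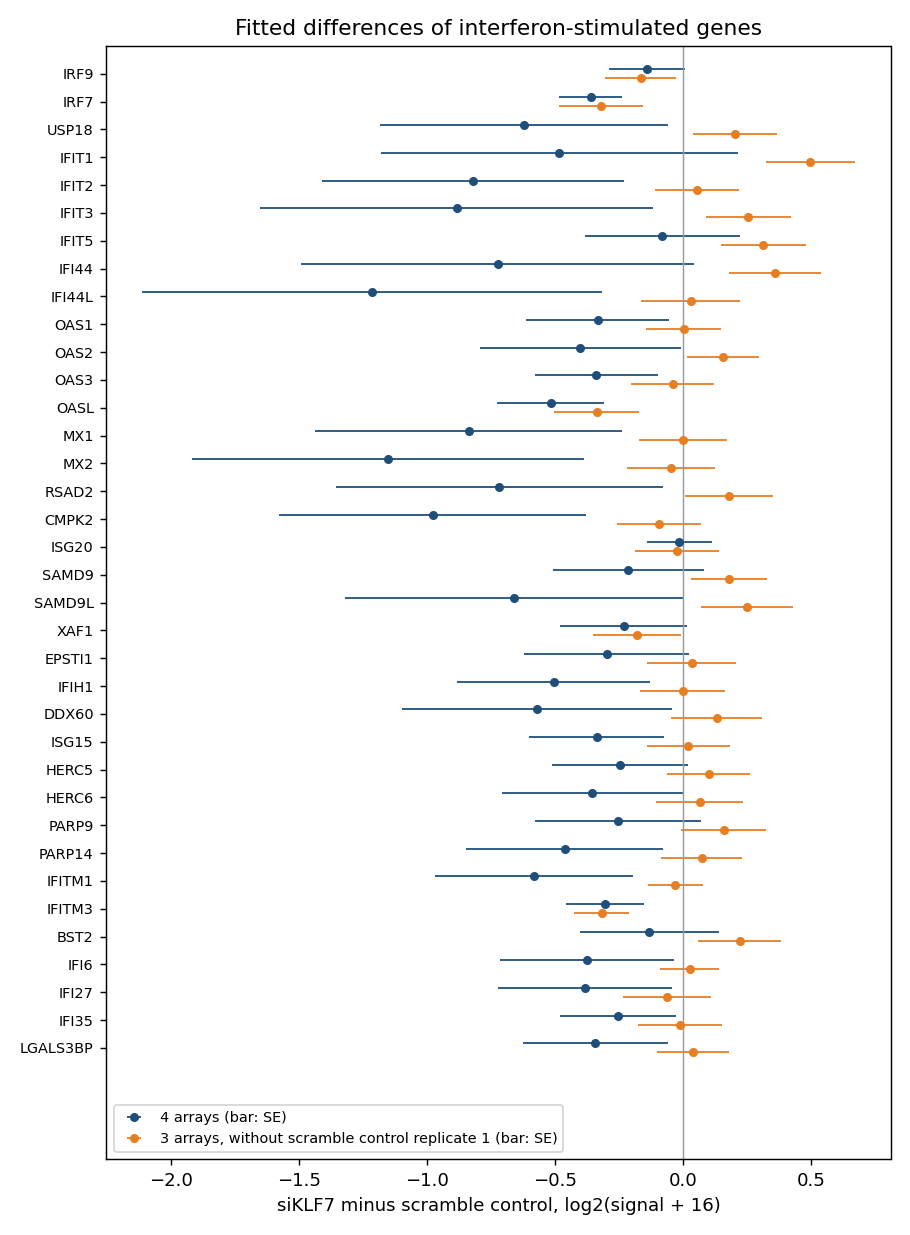
Fitted difference of each interferon-stimulated gene, siKLF7 minus scramble control in log2(signal + 16), with all 4 arrays (blue) and without scramble control replicate 1 (orange); bars are standard errors from limma. All 36 blue points lie below 0 with a median of -0.38, while the orange points lie on both sides of 0 with a median of 0.03.

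Of the signalling members, IRF9 and IRF7 differed little between arrays and USP18 differed more. IRF9, the DNA-binding subunit of ISGF3, stood at 10.47 and 10.22 in the siKLF7 arrays, against 10.46 and 10.51 in the scramble control arrays. Only siKLF7 replicate 2 stood slightly apart. IRF7, the factor that amplifies interferon production, stood at 8.16 and 8.07 in the siKLF7 arrays, against 8.52 and 8.43 in the scramble control arrays. Both siKLF7 values lay below both controls, and the difference of -0.36 (SE 0.12) with 4 arrays and -0.32 (SE 0.16) with 3 arrays did not pass (limma adjusted p = 0.639 and 0.448). USP18, a protease that removes ISG15 and dampens receptor signalling, stood at 8.02 and 7.71 in the siKLF7 arrays, against 9.31 and 7.66 in the scramble control arrays. It was high in 1 control alone.

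The IFIT and IFI44 families had the highest median difference between the controls of any role group, at 2.06, against 1.94 for the MX genes, while their median difference between the siKLF7 arrays, 0.53, was below the 0.63 of the MX genes. IFIT proteins bind foreign RNA ends or block translation, and their 4 genes lie together on chromosome 10. IFIT1 stood at 9.77 and 9.05 in the siKLF7 arrays, against 10.87 and 8.91 in the scramble control arrays. IFIT3, which steadies IFIT1 on RNA, stood at 9.06 and 8.73 in the siKLF7 arrays, against 10.92 and 8.64 in the scramble control arrays. For both genes the siKLF7 values lay between the controls, above scramble control replicate 2. The IFIT1 difference was -0.48 (SE 0.70) with 4 arrays and 0.50 (SE 0.17) with 3 arrays. The 3-array difference did not pass as deposited but passed after median centring or quantile normalization. More of all genes also passed in those 2 settings. IFIT2 stood at 8.60 and 8.48 in the siKLF7 arrays, against 10.24 and 8.49 in the scramble control arrays. IFIT5 was the flattest of the 4, at 9.04 and 8.76 in the siKLF7 arrays, against 9.38 and 8.59 in the scramble control arrays.

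IFI44L and IFI44 are neighbouring genes on chromosome 1 whose products are linked to antiviral defence and feedback control. IFI44L stood at 9.08 and 8.04 in the siKLF7 arrays, against 11.02 and 8.53 in the scramble control arrays. This was the largest span of the list, with a 5.63-fold difference between the controls and a 2.07-fold difference between the siKLF7 arrays. IFI44 stood at 7.51 and 6.69 in the siKLF7 arrays, against 8.90 and 6.74 in the scramble control arrays. The fitted difference of IFI44L was -1.22 (SE 0.90) with 4 arrays and 0.03 (SE 0.19) with 3 arrays, and that of IFI44 was -0.72 (SE 0.77) and 0.36 (SE 0.18).

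The OAS enzymes make the second messenger that activates RNase L, except OASL, which lacks that activity and acts on RNA sensing. OAS2 stood at 10.47 and 10.22 in the siKLF7 arrays, against 11.30 and 10.19 in the scramble control arrays. OAS1 and OAS3, its neighbours on chromosome 12, were also highest in scramble control replicate 1, by 0.67 and 0.60 over replicate 2. OASL stood at 8.06 and 7.66 in the siKLF7 arrays, against 8.56 and 8.20 in the scramble control arrays. Like IRF7 it had no overlap between groups, with differences of -0.52 (SE 0.21) with 4 arrays and -0.34 (SE 0.17) with 3 arrays (limma adjusted p = 0.639 and 0.430).

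MX1 and MX2 encode dynamin-like GTPases that block viral capsids and ribonucleoproteins. MX2 stood at 7.86 and 7.21 in the siKLF7 arrays, against 9.79 and 7.58 in the scramble control arrays. MX1 followed the same order, at 9.38 and 8.77 in the siKLF7 arrays, against 10.76 and 9.08 in the scramble control arrays. In both genes siKLF7 replicate 1 was above and siKLF7 replicate 2 below scramble control replicate 2, so the 3-array difference was near 0, at -0.05 (SE 0.17) for MX2, or 0.01 with quantile normalization, and 0.00 (SE 0.17) for MX1.

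Among 7 other antiviral effectors, SAMD9, ISG20 and XAF1 did not follow the common order of arrays. RSAD2 (viperin), which makes a chain-terminating nucleotide, stood at 7.88 and 7.21 in the siKLF7 arrays, against 9.16 and 7.37 in the scramble control arrays. CMPK2, a nucleotide kinase encoded beside RSAD2 on chromosome 2, stood at 8.99 and 8.75 in the siKLF7 arrays, against 10.73 and 8.96 in the scramble control arrays. The controls differed 3.47-fold for RSAD2 and 3.41-fold for CMPK2, while the siKLF7 arrays differed 1.59-fold and 1.18-fold. SAMD9L, which restrains translation, stood at 8.83 and 8.04 in the siKLF7 arrays, against 10.01 and 8.19 in the scramble control arrays. Its neighbour SAMD9 on chromosome 7 differed less, with levels of 10.18 and 9.97 in the siKLF7 arrays, against 10.68 and 9.89 in the scramble control arrays. EPSTI1 stood at 7.20 and 6.54 in the siKLF7 arrays, against 7.50 and 6.84 in the scramble control arrays. ISG20, an exonuclease, was the flat exception, at 8.43 and 8.56 in the siKLF7 arrays, against 8.50 and 8.52 in the scramble control arrays. XAF1, an antagonist of apoptosis inhibitors, had 1 low array: it stood at 9.55 and 8.91 in the siKLF7 arrays, against 9.51 and 9.41 in the scramble control arrays.

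Sensors of viral RNA kept the order too. DDX60, a helicase, stood at 9.08 and 8.40 in the siKLF7 arrays, against 10.01 and 8.61 in the scramble control arrays. IFIH1 (MDA5), the sensor of long double-stranded RNA, stood at 8.41 and 7.99 in the siKLF7 arrays, against 9.21 and 8.20 in the scramble control arrays. Both were more than 2-fold higher in scramble control replicate 1 than in replicate 2, and neither differed by more than 0.13 with 3 arrays.

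ISG15, the ubiquitin-like protein attached to new proteins during the response, stood at 7.95 and 7.92 in the siKLF7 arrays, against 8.63 and 7.92 in the scramble control arrays. HERC5, the ligase that attaches it, was the only measured member in the dimmest 25% of all genes, at 6.95 and 6.68 in the siKLF7 arrays, against 7.41 and 6.72 in the scramble control arrays. HERC6, its neighbour on chromosome 4, stood at 8.92 and 8.37 in the siKLF7 arrays, against 9.42 and 8.58 in the scramble control arrays. Differences of these 3 genes lay between 0.02 and 0.10 with 3 arrays and between -0.36 and -0.25 with 4 arrays. PARP9 and PARP14, a pair of ADP-ribosylation proteins on chromosome 3, were highest in scramble control replicate 1, by 0.83 and 1.07 over replicate 2. Their differences were -0.26 and -0.46 with 4 arrays, and 0.16 and 0.07 with 3 arrays.

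Among the membrane proteins, IFITM3 and BST2 did not follow the common order. IFITM3, which blocks the entry of enveloped viruses in endosomes, stood at 11.77 and 11.43 in the siKLF7 arrays, against 11.89 and 11.92 in the scramble control arrays. The controls differed 1.02-fold, and IFITM3 was the third member below both controls. Its difference was -0.31 (SE 0.15) with 4 arrays and -0.32 (SE 0.11) with 3 arrays. With 3 arrays its adjusted p was the smallest of any member but did not pass as deposited. It passed with quantile normalization, where more of all genes passed too. IFITM1, a related gene next to it on chromosome 11, stood at 11.74 and 11.46 in the siKLF7 arrays, against 12.74 and 11.63 in the scramble control arrays. These genes and IFITM2 are close copies, whose probe sets an array may not separate fully. BST2 (tetherin), which holds budding virions at the cell surface, stood at 7.12 and 6.82 in the siKLF7 arrays, against 7.45 and 6.75 in the scramble control arrays.

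IFI6, a small hydrophobic protein that limits cell death, stood at 12.12 and 11.54 in the siKLF7 arrays, against 12.60 and 11.80 in the scramble control arrays. IFI27, a related mitochondrial protein, stood at 9.84 and 9.13 in the siKLF7 arrays, against 10.19 and 9.55 in the scramble control arrays. In both, the difference between the siKLF7 arrays, 1.49-fold and 1.64-fold, was close to that between the controls, 1.74-fold and 1.56-fold. LGALS3BP, a secreted galectin-binding glycoprotein, stood at 10.32 and 10.19 in the siKLF7 arrays, against 10.98 and 10.22 in the scramble control arrays. IFI35, the remaining member, differed by -0.26 with 4 arrays and -0.01 with 3 arrays.

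The rest of the interferon pathway was read from 7 further lists, in which 0 of 102 measured genes passed with 4 arrays (0.00% of all genes) and 1 with 3 arrays (1.57% of all genes). Among 28 other interferon-induced genes, 28 were higher in siKLF7 replicate 1 than in replicate 2 (median 0.19), as were 56.3% of all genes. In scramble control replicate 1, 23 were higher than in replicate 2 (median 0.51), as were 49.2% of all genes. IFITM2, a relative of IFITM1 and IFITM3, stood at 10.83 and 10.51 in the siKLF7 arrays, against 11.79 and 11.11 in the scramble control arrays. Both siKLF7 values lay below both controls, with differences of -0.78 (SE 0.27) with 4 arrays and -0.44 (SE 0.13) with 3 arrays (limma adjusted p = 0.639 and 0.0646). CD274, the checkpoint ligand PD-L1, was also below both controls, at 8.61 and 8.37 in the siKLF7 arrays, against 10.23 and 8.86 in the scramble control arrays. With 3 arrays TNFSF10, the death ligand TRAIL, stood at 0.37 and TRIM5, a retroviral restriction factor, at 0.40, and neither passed.

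Among 18 genes of antigen presentation and gamma-interferon targets, 11 were higher in siKLF7 replicate 1 than in replicate 2 (median 0.07), as were 56.3% of all genes. In scramble control replicate 1, 13 were higher than in replicate 2 (median 0.21), as were 49.2% of all genes. The chemokine gene CXCL10 stood at 10.30 and 9.48 in the siKLF7 arrays, against 11.91 and 9.25 in the scramble control arrays. It was the 1 gene of these lists that passed, higher by 0.64 (SE 0.17, limma adjusted p = 0.0298) with 3 arrays, and stood at -0.69 (SE 0.92) with 4 arrays. Its relative CXCL11, named after its values were seen, stood at 8.12 and 7.30 in the siKLF7 arrays, against 11.75 and 7.78 in the scramble control arrays. That 15.7-fold difference between the controls exceeded that of any listed interferon-stimulated gene. With 3 arrays WARS1 stood at -0.32, GBP3 at 0.33 and CIITA at -0.29, and none of the 3 passed.

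Upstream genes were read next. Among 16 interferon genes, 12 lay in the dimmest 25% of all genes and 7 were higher in siKLF7 replicate 1 than in replicate 2 (56.3% of all genes). Both siKLF7 arrays lay below both controls for 11 of the 16 (28.9% of all genes) and above both for IFNA10 alone (16.3% of all genes). Summed signals of the leukocyte, melanocyte and vascular endothelial markers given below were also lower in both siKLF7 arrays than in both controls. Those of the fibroblast markers were not. Whether dim probe sets in general share this shift was not tested. With 3 arrays 15 of the 16 differences were below 0 and that of IFNA10 alone was above 0, as were those of 42.2% of all genes. Signals of IFNA10, IFNA16 and IFNA21 were under the pseudocount of 16 in every array, so their differences rest on very dim values. IFNB1, which encodes interferon beta, stood at 5.35 and 5.04 in the siKLF7 arrays, against 5.50 and 5.40 in the scramble control arrays. Interferon alpha genes are near-identical copies, and IFNA16, IFNA13 and IFNA2 differed by -0.47, -0.34 and -0.30 with 3 arrays. IFNW1, which is not an alpha gene, differed by -0.33, and none of these passed. IFNAR1, a subunit of the type I receptor, stood at 9.65 and 9.46 in the siKLF7 arrays, against 9.24 and 9.24 in the scramble control arrays. Each siKLF7 value exceeded each control, and the difference was 0.31 (SE 0.16, limma adjusted p = 0.444) with 3 arrays. Its partner IFNAR2, named after its values were seen, stood at 7.17 and 7.04 in the siKLF7 arrays, against 8.35 and 7.07 in the scramble control arrays, with differences of -0.60 (SE 0.44) with 4 arrays and 0.04 (SE 0.16) with 3 arrays. IFNLR1, the type III receptor subunit, stood at 7.75 and 7.85 in the siKLF7 arrays, against 8.18 and 7.78 in the scramble control arrays. The kinases JAK2 and TYK2 differed by 0.28 and -0.20 and IFNGR2 by 0.07 with 3 arrays.

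Among 19 sensing genes, 11 were higher in siKLF7 replicate 1 than in replicate 2 (56.3% of all genes). In scramble control replicate 1, 9 were higher than in replicate 2 (49.2% of all genes). Both counts were near the shares of all genes. RIGI, the sensor of short RNA ends and itself interferon-induced, was also highest in scramble control replicate 1, at 9.79 and 9.33 in the siKLF7 arrays, against 10.62 and 9.31 in the scramble control arrays. TRIM25, the ligase that aids RIGI, stood at -0.45 (SE 0.14, limma adjusted p = 0.0834) with 3 arrays, TLR8 at -0.38 and STING1 at 0.25. Among 7 negative regulators and 5 other IRF factors, median differences between the siKLF7 arrays were 0.04 and 0.01. With 3 arrays SOCS3 stood at -0.26, SOCS1 at -0.15, PIAS4 at -0.14, PIAS1 at 0.08, IRF8 at -0.33, IRF5 at -0.25, IRF1 at -0.21 and IRF4 at 0.07, and none passed.

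**Figure D5:**
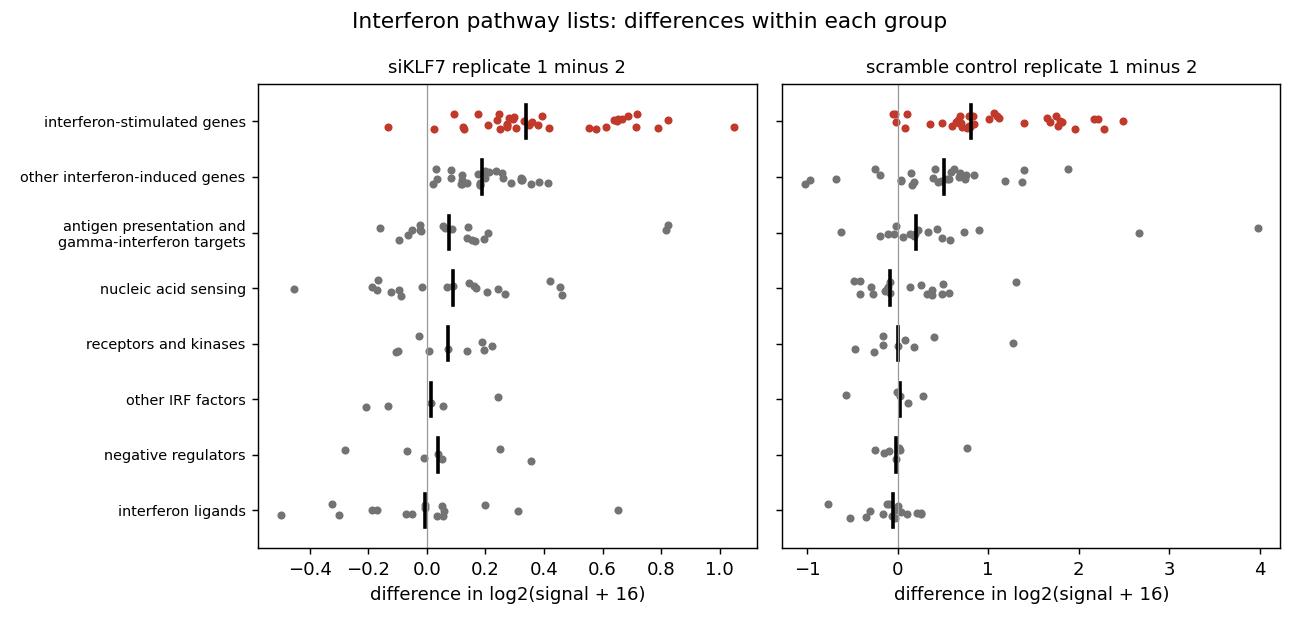
Difference between replicates 1 and 2 of the siKLF7 group (left) and of the scramble control group (right), in log2(signal + 16), for each gene of the interferon lists, with a black line at the median of each list. Medians are 0.34 and 0.81 for the interferon-stimulated genes, 0.19 and 0.51 for other interferon-induced genes, and -0.01 and -0.05 for the interferon genes themselves.

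Markers of other cells were measured beside the members. Among 13 leukocyte markers 10 lay in the dimmest 25%, PTPRC stood between 5.37 and 5.58 in all arrays, and their summed signal was 1929 and 1985 in the siKLF7 arrays, against 2529 and 2151 in the scramble control arrays. Among 12 fibroblast markers 6 lay in the dimmest 25%, and their summed signal was 3378 and 3228 in the siKLF7 arrays, against 4606 and 2794 in the scramble control arrays. POSTN stood at 9.44 and THY1 at 9.59 in scramble control replicate 1, against 5.37 to 6.99 for both genes in the other 3 arrays. The summed signal of the other 10 fibroblast markers was 3200 and 3075 in the siKLF7 arrays, against 3175 and 2657 in the scramble control arrays. POSTN and THY1 were left out of that sum after their values were seen, so it does not describe the whole list. With 3 arrays, markers higher in siKLF7 included POSTN and LUM (fibroblast) and KRT12, KRT3 and KRT15 (epithelial), which were picked by their result in that fit. For POSTN this held against scramble control replicate 2 alone, since both siKLF7 arrays lay below scramble control replicate 1. Summed signals were 862 to 989 for 6 melanocyte markers and 1181 to 1498 for 7 vascular endothelial markers. No marker of the leukocyte, fibroblast, melanocyte and endothelial lists had a signal at or under 16 in any array. In the epithelial list KRT3 was under it in scramble control replicate 1. The summed signal of 9 epithelial markers was 41664 and 44248 in the siKLF7 arrays, against 31917 and 37978 in the scramble control arrays. The part of any of these markers in the levels of interferon-stimulated genes was not tested.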

How the data were processed

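Deposited values were linear array intensity for 33297 features, in 1 table from the authors. Per the submitters' processing notes, Affymetrix Expression Console 1.1.1 and PLIER 2.0 were used; no source used here says how, or if, arrays were normalized together. Median signals were 190 and 185 in the siKLF7 arrays and 187 and 194 in the scramble control arrays. An uneven array scale would shift all members together.

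Features with 1 gene symbol (19460) were used, 1754 with several and 12083 with none were not, and for 769 genes the feature with the highest mean was taken. Values were log2(signal + 16), with no further normalization. Groups and replicate numbers came from the sample titles. siKLF7 minus scramble control was fitted with limma 3.58.1 (R 4.3.3, intensity trend) over 18417 genes with Benjamini-Hochberg adjustment at 0.05, with 4 arrays (2 residual and 2.63 prior degrees of freedom) and with 3 (1 and 74.2). In the 3-array fit the lone control is assumed to vary like the siKLF7 pair, so its errors rest mostly on the prior. The number of arrays limits the precision.

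The members, the gene lists and the rule for naming genes were chosen with earlier results of these data known. Members were given with array values if they passed a fit, were among the 8 with the largest difference within either group, were among the 5 brightest or 5 dimmest, or had groups that did not overlap with a difference of at least 0.3. Up to 4 genes per other list were named by their 3-array p, with CXCL10, IFNB1, IFNAR1 and IFNLR1 always given. Members beyond this rule complete their role groups, and CXCL11, IFNAR2, SP110, SP100 and PML were named after their values were seen. Figures were drawn with matplotlib 3.10.9.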

Additional observations from a re-analysis of the deposited data

How the results depend on the processing

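Alternatives were another pseudocount (1 or 32), quantile normalization, median centring, the mean of probe sets, filters on dim genes, robust or untrended priors, a threshold of 0.10, a replicate block and leaving out each array. With 4 arrays, leaving out 1 array gave 0 to 32 members passing, 0 to 4935 genes passing, a median member difference of -0.7499 to 0.0312 and a KLF7 difference of -1.83 to -1.16, which passed when either control was left out. The 32 members and 4935 genes came without scramble control replicate 2. Leaving out scramble control replicate 1 gave 0 members and 290 genes. With 3 arrays, 2 members passed with quantile normalization (IFIT1 at 0.50, adjusted p = 0.0427, and IFITM3 at -0.33, adjusted p = 0.0287) and 1 with median centring (IFIT1 at 0.53, adjusted p = 0.0259), while 478 genes passed with quantile normalization and 172 with an untrended prior. MX2 was 0.0067 with quantile normalization and IFITM1 0.0018 with median centring. With either of these 2 settings the common order of arrays held for 19 of 36 members, against 22 as deposited. The split of the siKLF7 arrays around scramble control replicate 2 held for 19, against 23. In siKLF7 replicate 2, 13 members stood above scramble control replicate 2, against 9. Shares of all genes are not given for these 2 settings, and the cause of these shifts was not tested.

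Leaving out 1 array at a time, the 4-array difference ranged as follows in 13 named members whose sign turned: EPSTI1 -0.63 to 0.0332, BST2 -0.49 to 0.22, IFI44L -2.46 to 0.0292, IFIT3 -2.02 to 0.25, IFI44 -1.81 to 0.36, IFIT1 -1.47 to 0.50, SAMD9L -1.57 to 0.25, RSAD2 -1.62 to 0.18, DDX60 -1.27 to 0.13, IFI6 -0.78 to 0.0241, OAS2 -0.96 to 0.16, LGALS3BP -0.72 to 0.0375 and HERC5 -0.59 to 0.10. Without scramble control replicate 1, 23 of the 36 members turned, these 13 among them, and EPSTI1 and BST2 also turned without siKLF7 replicate 2, at 0.026 and 0.0168. With the replicate number as a block, 0 members and 0 genes passed and the median stayed at -0.38. Deviations of same-numbered samples from their group means correlated at -0.04 across all genes and at 0.53 across the members. With 2 arrays per group these equal the correlations of the within-group differences given above and are no separate check. The labels do not tie a number to a shared batch, so the numbers were not taken to pair samples. Background intensities were not used here, so how far dim probe sets such as that of HERC5 stood above background is unknown.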

Other observations

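Among the other interferon-induced genes, the nuclear body proteins were among those highest in scramble control replicate 1. SP110 stood at 8.75 and 8.57 in the siKLF7 arrays, against 10.40 and 8.52 in the scramble control arrays. SP100 stood at 9.89 and 9.56 in the siKLF7 arrays, against 11.01 and 9.61 in the scramble control arrays. PML, the organizer of these bodies, stood at 9.34 and 9.13 in the siKLF7 arrays, against 10.28 and 9.43 in the scramble control arrays. These 3 genes were chosen after their values were seen. For PML both siKLF7 arrays lay below both controls, while for SP100 and SP110 the groups overlapped, and none passed in either fit.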
